A study of Mus musculus with 4 samples.

Results

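The RNA exosome is the main 3′ to 5′ RNA-degrading complex of the cell, and its messenger RNAs were followed here through 10 genes in mouse oocytes: Exosc1, Exosc2, Exosc3, Exosc4, Exosc5, Exosc7, Exosc8, Exosc9, Exosc10 and Dis3. They were chosen by gene symbol, as 10 of 17945 genes, and their reads were spread over 28 of 48574 RefSeq transcript models. The libraries came from oocytes at the germinal vesicle stage, arrested in meiotic prophase, taken by follicle puncture from unprimed female mice at postnatal day 20 and kept arrested with milrinone in both groups. Each live oocyte was assigned from bright-field images to the non-surrounded nucleolus class (NSN) or the surrounded nucleolus class (SN), in which condensed chromatin rings the nucleolus. There were 2 libraries per class and 15 oocytes per class, 30 in all. The mouse strain and the number of oocytes in each library are not given in the sources used here. Nor do those sources tie the replicates to different animals, and every p-value here therefore reflects the spread of 4 libraries, which may be technical. The class of an oocyte is a prediction made by an image-analysis pipeline, not a stain of its chromatin. Values are shares of a library's mRNA, so less mRNA per oocyte and fewer oocytes cannot be told apart.

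The complex is a barrel. A ring of subunits with the RNase PH fold (Exosc4, Exosc5, Exosc7, Exosc8 and Exosc9 among them) carries a cap of RNA-binding S1 and KH domain proteins (Exosc1, Exosc2 and Exosc3), and in mammals this barrel does not cut RNA itself. Cutting is done by the attached nucleases DIS3 and EXOSC10, which act mainly in the nucleus, while the related DIS3L serves the cytoplasmic complex. The exosome trims ribosomal and small nuclear RNA precursors and destroys unstable nuclear transcripts, and mouse oocytes that lack EXOSC10 are known to fail in the change from growth to maturation.

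Library totals ranged from 32307398 to 37023401 estimated counts, and both SN libraries were deeper than both NSN libraries. All 11 oocyte markers examined were present, with summed levels of 23636 to 26024 TPM (a length-corrected share of all transcripts in the library). The 12 granulosa and cumulus markers summed to 45.1 and 54.8 TPM in NSN and 38.7 and 46.3 TPM in SN. The 6 theca and stroma markers in the table summed to 3.51 to 5.44 TPM. The 7 blood, immune and endothelial markers summed to 9.43 and 10.1 TPM in NSN and 12.5 and 15.7 TPM in SN. The haemoglobin gene Hba-a1 was at 0 in both NSN libraries and at 1.87 and 2.75 TPM in SN. Lyz2 (0 and 0.05 TPM in NSN, 1.14 and 1.52 in SN) was also higher in both SN libraries. So were Hbb-bs (0 and 0.1 against 0.22 and 0.57) and Cd68 (2.82 and 1.74 against 3.45 and 3.15). The most abundant of the list, Pecam1, had means of 7.10 TPM in NSN and 6.50 TPM in SN, but its classes overlapped. Kdr was lower in both SN libraries, with means of 0.315 TPM in NSN and 0.235 TPM in SN. Ptprc had a mean of 0.005 TPM in each class. Of the granulosa and cumulus markers, Cyp19a1 had the highest mean and was at 24.8 to 27.97 TPM over the 4 libraries. Nr5a2 was at 6.3 to 8.87 TPM and, like Cyp19a1, was highest in NSN replicate 2. Inha was at 12.33 and 4.79 TPM in NSN and 3.48 and 7.02 TPM in SN. Gja1 (2.15 TPM), Hsd17b1 (2.0 TPM) and Fst (0.81 TPM) were also highest in NSN replicate 1. In the same list, Foxl2 was at 0 in 3 of the 4 libraries and Amh in 1. The part of these other cell types in the results was not tested. Across genes, log2 CPM (counts as a share of the library, not corrected for length) correlated at 0.986 within each class and at 0.984 to 0.987 between classes, so the libraries of a class did not stand together.

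Promoters are shown for the 2 nucleases, the members with the lowest levels, for Exosc7, the member with the highest, and for Exosc2, the member with the largest difference between the classes. Each window runs from 250 bases before to 50 bases after a RefSeq start site (GRCm38.p6), 5′ to 3′ on the gene's strand. Capitals mark matches, on either strand, to 7 motifs chosen after these promoters had been read, and the pair of motifs 10 bases long was copied from the Dis3 and Exosc5 windows.
Dis3, chr14:99099721-99100020, minus strand: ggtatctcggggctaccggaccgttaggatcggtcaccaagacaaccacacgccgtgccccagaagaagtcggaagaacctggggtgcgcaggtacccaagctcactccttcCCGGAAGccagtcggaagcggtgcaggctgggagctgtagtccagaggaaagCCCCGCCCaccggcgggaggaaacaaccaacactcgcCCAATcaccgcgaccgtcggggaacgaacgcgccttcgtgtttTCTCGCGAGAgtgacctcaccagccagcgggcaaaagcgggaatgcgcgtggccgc
Exosc10, chr4:148558169-148558468, plus strand: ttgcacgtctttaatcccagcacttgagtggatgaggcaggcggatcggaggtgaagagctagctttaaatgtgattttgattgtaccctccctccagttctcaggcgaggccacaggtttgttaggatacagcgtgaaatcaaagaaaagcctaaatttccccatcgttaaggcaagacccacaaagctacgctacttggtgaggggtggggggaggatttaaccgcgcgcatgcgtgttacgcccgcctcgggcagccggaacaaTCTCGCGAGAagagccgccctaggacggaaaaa
Exosc7, chr9:123112981-123113280, plus strand: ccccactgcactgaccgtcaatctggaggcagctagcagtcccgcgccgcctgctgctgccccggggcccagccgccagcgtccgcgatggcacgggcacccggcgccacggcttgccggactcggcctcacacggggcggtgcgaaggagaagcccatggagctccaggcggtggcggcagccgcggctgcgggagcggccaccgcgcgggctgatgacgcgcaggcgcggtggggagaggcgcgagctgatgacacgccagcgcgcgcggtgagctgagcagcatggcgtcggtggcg
Exosc2, chr2:31670465-31670764, plus strand: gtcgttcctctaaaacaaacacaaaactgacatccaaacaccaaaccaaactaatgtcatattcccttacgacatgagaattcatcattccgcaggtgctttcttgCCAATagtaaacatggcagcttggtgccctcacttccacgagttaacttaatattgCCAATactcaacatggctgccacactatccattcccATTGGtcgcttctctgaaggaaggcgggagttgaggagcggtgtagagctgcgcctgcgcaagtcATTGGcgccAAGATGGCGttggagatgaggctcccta
The Dis3 and Exosc10 windows both held the palindrome TCTCGCGAGA, which is found in 0.466% of all 32851 promoter windows of that length. It began 6 bases upstream of the start site in Dis3 and 17 bases downstream of it in Exosc10. No other of the 9 member windows, which cover every member but Exosc4 and Exosc9 and include a downstream start of Exosc10, held it.

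The remaining motifs were spread among members. The ETS core CCGGAAG (8.86% of all windows) was in the windows of Dis3 and Exosc3 and in the downstream window of Exosc10. The NRF1 palindrome GCGCATGCGC (0.971%) was in that of Exosc5, and the YY1 motif AAGATGGCG (1.40%) in that of Exosc2, 22 bases downstream of the start. The SP motif GGGCGGGG (17.6%) was in the windows of Dis3 and Exosc8, and the NFY box CCAAT (37.4%) in those of Dis3, Exosc1, Exosc2 and Exosc5. The TATAAA box (13.6%) was in none, and the Exosc7 window held no match to any of the 7. CCAAT matches on opposite strands overlapped in Exosc1, and no other matches of different motifs overlapped. The member windows had a median GC content of 64.0% against 52.7% over all windows, and a median ratio of observed to expected CpG of 0.861 against 0.384. A match describes letters only, and binding was not measured.

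Per length, with gene positions from RefSeq (GRCm38.p6), the 5 ring genes together made up most of the exosome mRNA, the 3 cap genes less and the 2 nucleases least. Gene by gene the order was mixed, since the ring gene Exosc9 lay below the cap genes Exosc1 and Exosc3. The 5 ring genes supplied 76.3% to 78.5% of the TPM of the 10 genes in every library, the 3 cap genes 19.3% to 21.5% and the 2 nucleases 2.15% to 2.70%. Summed over the 10 genes, the level was 1166 and 1148 TPM in NSN and 1037 and 1149 TPM in SN. SN replicate 1 was the lowest library, and SN replicate 2 lay within the range of NSN.

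**Figure D1:**
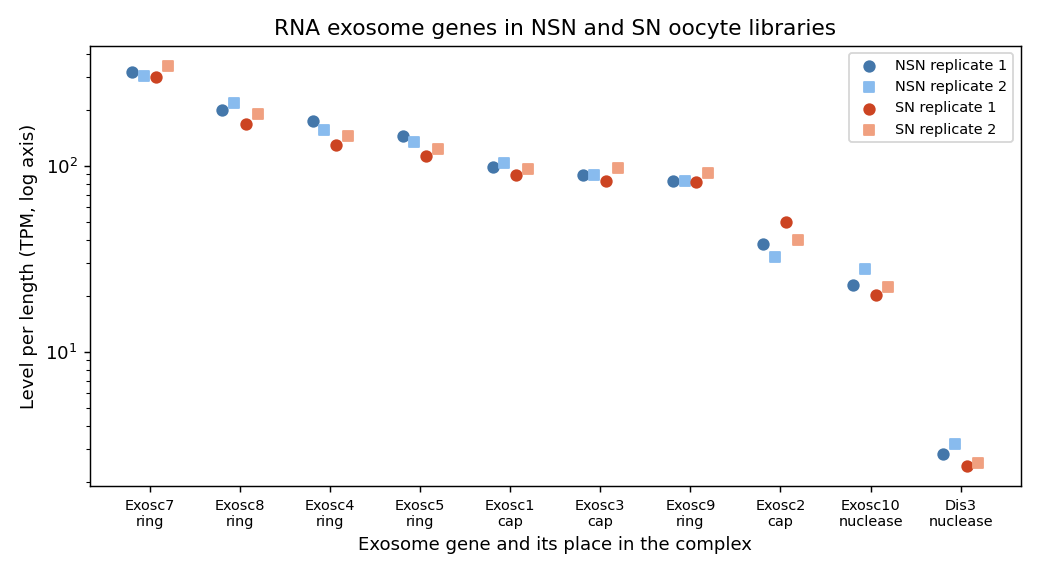
Level per length of each exosome gene (TPM, log axis) in the 4 libraries, ordered by mean; circles are replicate 1 and squares replicate 2, blue for NSN and red for SN. Exosc7 lies highest at 299 to 343 TPM and Dis3 lowest at 2.43 to 3.21 TPM. The 4 libraries of a gene lie far closer together than these 2 genes do, but 4 of the 9 pairs of neighbours overlap.

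Exosc7 (chr9:123113231-123136129, plus strand), a ring subunit, had the highest level, at 318 and 303 TPM in NSN and 299 and 343 TPM in SN. Exosc8 (chr3:54728679-54735364, minus strand), another ring subunit, followed at 198 and 217 TPM in NSN and 168 and 189 TPM in SN. No library's Exosc8 level reached the lowest Exosc7 level. Exosc4 (chr15:76327397-76330670, plus strand) was at 173 and 156 TPM in NSN and 129 and 144 TPM in SN, and its range overlapped those of Exosc8 above it and Exosc5 below it. Exosc5 (chr7:25659153-25668032, plus strand) was at 144 and 134 TPM in NSN and 113 and 124 TPM in SN. Exosc5 in turn lay above every member ranked below it in each library.

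The cap genes Exosc1 and Exosc3 and the ring gene Exosc9 formed a group whose neighbours overlapped. Exosc1 (chr19:41922978-41933423, minus strand) was at 98.3 and 104 TPM in NSN and 89.3 and 96.2 TPM in SN. Exosc3 (chr4:45316613-45320616, minus strand) was at 88.8 and 89.1 TPM in NSN and 83.2 and 97.2 TPM in SN. Exosc9 (chr3:36552606-36565727, plus strand) was at 82.8 and 82.4 TPM in NSN and 82.2 and 91.4 TPM in SN, and at its mean of 84.7 TPM it still stood above 90.6% of the 17923 genes with any signal. Exosc2 (chr2:31670715-31681352, plus strand), the third cap gene, lay apart and lower at 38.2 and 32.2 TPM in NSN and 50.1 and 40.1 TPM in SN. Exosc3 exceeded Exosc2 2.33-fold and 2.77-fold in NSN and 1.66-fold and 2.43-fold in SN. Of the 9 pairs of neighbours in the order of levels, 4 overlapped.

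The nucleases closed the order. Exosc10 (chr4:148558419-148582401, plus strand), the nuclear 3′ exonuclease of the complex, was at 22.7 and 27.8 TPM in NSN and 20.2 and 22.2 TPM in SN. Dis3 (chr14:99076634-99099780, minus strand), the processive nuclease at the base of the barrel, was at 2.83 and 3.21 TPM in NSN and 2.43 and 2.54 TPM in SN. Exosc10 exceeded Dis3 8.03-fold to 8.74-fold in every library. Dis3 stood near the middle of all genes, above 52.5% of them, where every other member stood above at least 78.9%. The mean level of Exosc7 was 115 times that of Dis3, and this span was 112.5 and 94.4 in NSN and 123 and 135 in SN. These levels rest on the authors' effective lengths, which were 830 bases for NM_001081188.1 of Exosc7, 2593 for NM_016699.3 of Exosc10 and 3514 for NM_028315.2 of Dis3. In CPM scaled by the TMM method, not corrected for length, Dis3 was still lowest at 6.17 to 6.53. There Exosc10, at 42.1 to 47.8, overlapped Exosc2, at 31.7 to 62.6. The part of transcript length in the order was not tested.

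The comparison of the classes asked whether exosome mRNAs differ between oocytes with and without the chromatin ring. With edgeR's quasi-likelihood fit, 0 of 10 members and 0 of 13426 genes (0%) were called at an adjusted p under 0.05. Exosc2 and Exosc9 had an unadjusted edgeR p under 0.05 with the higher value in SN, which makes 2 of 10 members, and none had one with the lower value. Over all genes 7.48% had such a p, and 4.01% had it with the higher value in SN. limma-voom called 0 members and 0 genes (0%). DESeq2 called 47 of 896 genes with an adjusted p (5.25%, and 5.13% with the higher value in SN), and its independent filter left all 10 members without an adjusted p. The median log2 fold change of SN over NSN was 0.042 over the members, with 6 higher and 4 lower, and -0.011 over all genes. With library size alone and on both log2 TPM scales the split was 4 higher and 6 lower, with member medians of -0.10, -0.16 and -0.17 beside medians over all genes of -0.15, -0.16 and -0.18. The fold also moved with abundance over all genes: the median log2 was -0.056 at a log2 CPM of 2 to 4, where Dis3 lay, -0.023 at 4 to 6, where Exosc2, Exosc3 and Exosc10 lay, and 0.034 at 6 to 8, where the other 6 members lay and 60.3% of genes were higher in SN. The part of that trend in the members' values was not tested. In TMM-scaled CPM, both libraries of one class lay above both of the other for 5 of 10 members, and for 39% of all genes. SN was the higher class in 4 of these members, and in 18.3% of all genes, while NSN was higher in 1 member, Exosc8, and in 20.7% of all genes. In TPM the tally turned round: both NSN libraries lay above both SN libraries for 6 members (Exosc1, Exosc4, Exosc5, Exosc8, Exosc10 and Dis3) and for 39.5% of the 10580 genes with a mean of at least 1 TPM. SN lay above NSN in TPM for Exosc2 alone among members and for 4.53% of those genes, and the remaining 3 members overlapped.

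**Figure D2:**
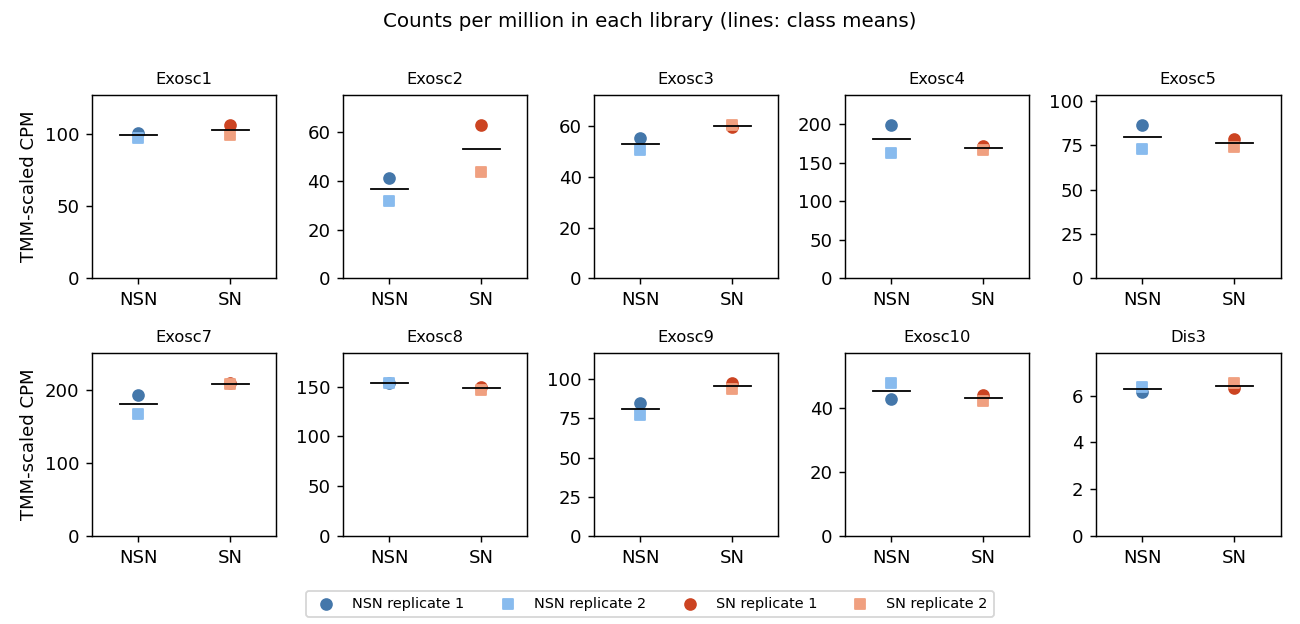
TMM-scaled CPM (vertical axes from 0) of each exosome gene in the 2 NSN and 2 SN libraries; circles are replicate 1, squares replicate 2 and lines class means. Exosc2 has its replicate 1 above its replicate 2 in both classes, and SN replicate 2 at 43.5 lies just above NSN replicate 1 at 41.3.

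Among the cap genes, Exosc2 had the largest difference of the 10. It encodes one of the cap proteins that line the entrance of the barrel. Scaled by the TMM method, it measured 41.3 and 31.7 CPM in the NSN pair against 62.6 and 43.5 in the SN pair. Both SN libraries lay above both NSN libraries, but the nearest pair differed by little. The log2 fold change was 0.54 (SE 0.20, 95% interval 0.082 to 1.00, edgeR adjusted p = 0.662). The replicates differed by nearly as much as the classes, since replicate 2 lay below replicate 1 by a log2 of -0.38 in NSN and -0.53 in SN. Within replicate number 1 SN exceeded NSN by 0.60, and within number 2 by 0.46. The labels do not pair these numbers, however. Across numbers, SN replicate 2 at 43.5 CPM barely exceeded NSN replicate 1 at 41.3. SN replicate 1 at 62.6 CPM lay far above NSN replicate 2 at 31.7. Exosc2 was called only without SN replicate 2 (log2 0.78, edgeR adjusted p = 4.32e-05), a fit in which SN replicate 1 stood alone for its class and 289 genes were called. Over the 13 alternatives that gave it an adjusted p, that p ran from 4.32e-05 to 0.975. Without SN replicate 1 the log2 was 0.26. An antisense gene, Gm13427, overlaps 358 of its 2888 exonic bases (12.4%) on the opposite strand, and whether strand was used in counting is not given in the sources used here.

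Exosc3, the cap subunit mutated in human pontocerebellar hypoplasia, measured 55.1 and 50.5 CPM in the NSN pair against 59.5 and 60.2 in the SN pair. Both SN libraries lay above both NSN libraries, and the log2 was 0.18 (SE 0.10, 95% interval -0.036 to 0.40, edgeR adjusted p = 0.708). It was 0.040 with library size alone and 0.016 on the log2(TPM + 1) scale, beside medians over all genes of -0.15 and -0.16. In TPM the classes of Exosc3 overlapped. Dcaf10 overlaps 53 of its 1324 exonic bases (4.0%) on the opposite strand and was at 3.42 to 4.60 TPM. Exosc1 measured 101.0 and 97.3 CPM in the NSN pair against 106 and 99.1 in the SN pair, and its classes overlapped. Its log2 of 0.049 had an interval of -0.15 to 0.25, which leaves room for differences of up to 1.19-fold. The direction of Exosc1 flipped with library size alone, where it lay at -0.097 beside a median of -0.15 over all genes, and on the log2(TPM + 1) scale (-0.12), where that median was -0.16.

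**Figure D3:**
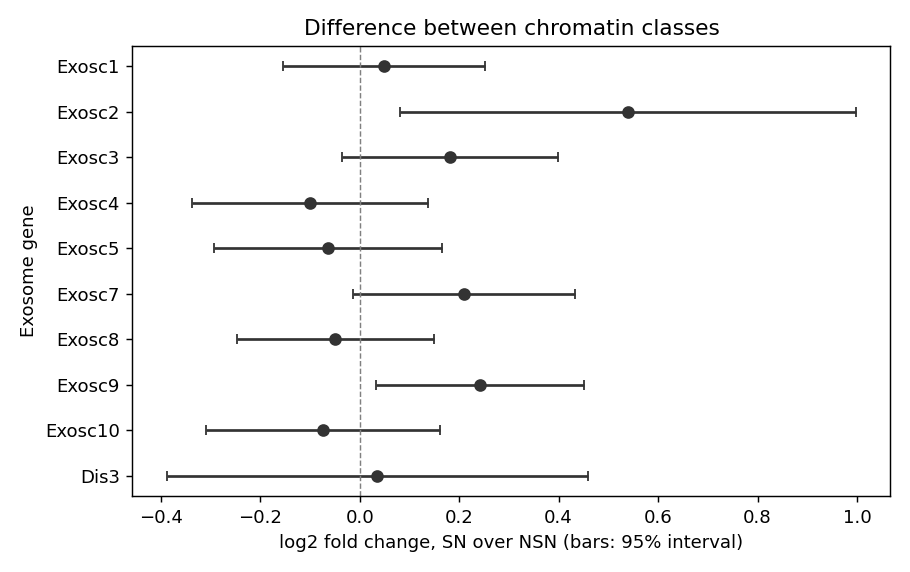
Log2 fold change of SN over NSN for each exosome gene from edgeR's quasi-likelihood fit, with 95% intervals as bars and the dashed line at 0. The intervals of Exosc2 (0.082 to 1.00) and Exosc9 (0.032 to 0.45) lie above 0 before adjustment for the number of genes, and the other 8 include 0.

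The ring genes went in both directions. Exosc9, an autoantigen in polymyositis and scleroderma, measured 84.9 and 77.1 CPM in the NSN pair against 97.5 and 94.1 in the SN pair. Its classes did not overlap, and SN exceeded NSN by 1.18-fold (log2 0.24, SE 0.10, 95% interval 0.032 to 0.45, edgeR adjusted p = 0.662). Exosc7 measured 192 and 167 CPM in the NSN pair against 209 and 207 in the SN pair. Its classes did not overlap either, with the spread lying in NSN (log2 0.21, SE 0.10, 95% interval -0.013 to 0.43, edgeR adjusted p = 0.676). Both kept their direction under all 14 alternatives, but not their size. Exosc7 was at 0.069 with library size alone, 0.045 on the log2(TPM + 1) scale and 0.11 without NSN replicate 2, and Exosc9 at 0.098, 0.068 and 0.17. In the same order, the median over all genes was -0.15, -0.16 and 0.0038, against -0.011 in the main fit. In TPM the classes of both genes overlapped. The cyclin gene Ccna2 overlaps 510 of the 4709 exonic bases of Exosc9 (10.8%) on the opposite strand. Ccna2 was at 42.4 and 49.7 TPM in NSN and 37.9 and 40.4 TPM in SN, and its part in the Exosc9 count was not tested. Exosc7 overlaps no other annotated exon.

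Exosc4, Exosc5 and Exosc8 lay slightly lower in SN. Exosc4 measured 199 and 164 CPM in the NSN pair against 172 and 166 in the SN pair, with the SN values inside the range of NSN (log2 -0.10, SE 0.11). Exosc5 measured 86.2 and 73.1 CPM in the NSN pair against 78.3 and 74.1 in the SN pair, again inside it (log2 -0.063, SE 0.11). Both turned positive without NSN replicate 1, Exosc4 to 0.047 and Exosc5 to 0.060. Exosc8 had the closest values of the ring, at 153.2 and 153.4 CPM in the NSN pair against 149.7 and 146.7 in the SN pair. Its classes did not overlap, yet the log2 was only -0.049 (SE 0.09, 95% interval -0.25 to 0.15), which bounds the difference between 1.11-fold higher and 0.84-fold of the NSN level. The edgeR adjusted p-values of these 3 genes were 0.845, 0.907 and 0.918. Supt20 overlaps 89 of the 4333 exonic bases of Exosc8 (2.05%) on the opposite strand and was itself at 184 to 196 TPM. Oplah overlaps 19.8% of the exonic bases of Exosc4 and Tmem91 5.66% of those of Exosc5, but Oplah was at 0.03 to 0.10 TPM and Tmem91 at 1.10 to 2.11 TPM.

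In TMM-scaled CPM, neither nuclease differed between the classes by more than the spread between libraries. Exosc10 measured 42.8 and 47.8 CPM in the NSN pair against 44.0 and 42.1 in the SN pair, and the classes overlapped (log2 -0.073, SE 0.11, 95% interval -0.31 to 0.16, edgeR adjusted p = 0.896). Its direction flipped without NSN replicate 2 (0.0097). Dis3 measured 6.17 and 6.37 CPM in the NSN pair against 6.33 and 6.53 in the SN pair, from only 205 to 243 counts per library. Its interval was the widest after that of Exosc2, from -0.39 to 0.46, which takes in folds from 0.76 to 1.37 (log2 0.035, SE 0.19, edgeR adjusted p = 0.975). Its direction flipped with library size alone (-0.11) and on the log2(TPM + 1) scale (-0.20). The median over all genes was -0.15 and -0.16 there. Pibf1 overlaps 4.19% of its exonic bases on the opposite strand and was at 8.61 to 10.6 TPM, above Dis3 in every library.

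Most members were represented by a main transcript model. Exosc4, Exosc5 and Exosc9 had 1 model each. The curated main model took 92.4% to 93.8% of the counts of Exosc1 (NM_025644.4), 98.3% to 99.1% of Exosc3 (NM_025513.4), 98.4% to 99.8% of Exosc8 (NM_027148.3) and 97.3% to 99.2% of Exosc10 (NM_016699.3). Of Exosc7 it took 99.8% or more. Among the minor models, NM_001320233.1 took 2.09% to 3.28% of Exosc1, NM_001320232.1 1.49% to 1.95% and XM_011247312.3 1.33% to 2.08%. NM_001163570.1 of Exosc8 was least in NSN replicate 1, at 0.19%, and reached 1.57% in SN replicate 1. Exosc2 was the exception among abundant members, since its curated model NM_144886.3 took 54.7% and 57.8% of the counts in NSN and 52.7% and 54.8% in SN and the predicted model XM_006497944.3 the rest. In both classes the predicted model thus held 42.2% to 47.3%. Counts of models this alike are estimates of how shared reads divide, and the error of that division is not part of the tests.

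The estimated division of Dis3 counts among its models differed in 1 library. Here too, the error of that division is not part of the tests. The curated Dis3 model NM_028315.2 took 47.0% and 50.5% of the counts in NSN and 48.3% and 59.1% in SN. The predicted model XM_030248047.1 had 74.1 and 89.7 estimated counts in NSN and 78.9 in SN replicate 1, but 5.57 in SN replicate 2. The curated model NM_001360050.1 had 19.6 and 15.9 counts in NSN and 29.6 in SN replicate 1, but 93.8 in SN replicate 2. SN replicate 2 therefore stood apart from its own class as well as from NSN, while the summed count of Dis3 did not. The share of models did not pass for any of the 6 members tested (edgeR diffSpliceDGE, Simes adjusted p of 1 for each), where 30 of 7000 genes were called (0.429%) and 7.06% had an unadjusted p under 0.05.

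Tested singly, 21 of the 28 member models entered the fit. None was called by edgeR, as 0 of 29835 models were (0%). None of the 21 had an unadjusted edgeR p under 0.05, where over all models 6.47% had one and 3.37% had it with the higher value in SN. The log2 was 0.46 (SE 0.22, edgeR adjusted p = 0.950) for the curated and 0.60 (SE 0.29, edgeR adjusted p = 0.951) for the predicted model of Exosc2. DESeq2 called none of the member models, against 3.66% of all models and 2.01% with the higher value in SN. In the authors' deposited table, 4 of the 28 models had an unadjusted p under 0.05 and all 4 were higher in SN, against 8.36% of the models with a p and 4.43% that were also higher in SN. The authors' deposited table gave NM_019393.2 of Exosc9 a log2 ratio of 0.23 and a p of 0.0100, and NM_001081188.1 of Exosc7 0.20 and 0.0421. For Exosc2 the authors' deposited table gave 0.46 and 0.0417 for the curated and 0.61 and 0.0343 for the predicted model. The authors' tool is not given in the sources used here.

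Beyond the 10 genes, the ring subunit Exosc6 was far lower than its partners, at 6.54 and 5.96 TPM in NSN and 4.13 and 5.36 TPM in SN. Exosc9, the lowest ring member, exceeded it 12.7-fold to 19.9-fold. Exosc6 was lower in both SN libraries, with a log2 of -0.24 (SE 0.23, edgeR adjusted p = 0.825). Dis3l, the nuclease of the cytoplasmic exosome, was at 38.5 and 48.3 TPM in NSN and 29.6 and 34.03 TPM in SN. It exceeded Dis3 12.2-fold to 15.1-fold and Exosc10 1.47-fold to 1.74-fold, so that it was the most abundant of the 3 exosome nuclease mRNAs in every library. Its log2 between the classes was -0.27 (SE 0.10, edgeR adjusted p = 0.662).

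**Figure D4:**
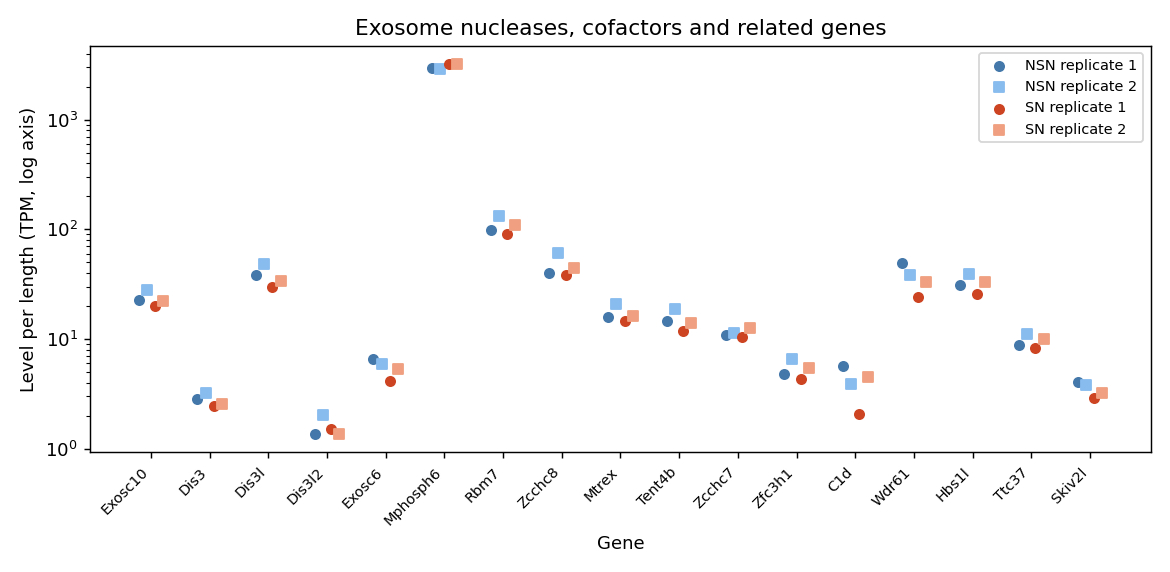
Level per length (TPM, log axis) of the exosome nucleases, Exosc6, nuclear and cytoplasmic cofactors and Dis3l2 in the 4 libraries; circles are replicate 1 and squares replicate 2, blue for NSN and red for SN. Mphosph6 lies highest at 2919 to 3199 TPM, and Dis3l lies above both Exosc10 and Dis3.

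Nuclear cofactors bring substrates to the complex, and none of the 21 tested was called. Their median log2 was -0.039, with 8 higher and 13 lower, and 0 had an unadjusted p under 0.05. Mphosph6, which helps to dock the MTR4 helicase on the nuclear exosome, was at 2969 and 2919 TPM in NSN and 3195 and 3199 TPM in SN. That was 105 to 158 times the level of Exosc10, the highest of any cofactor examined. Its log2 was 0.29 (SE 0.16, edgeR adjusted p = 0.707), and 0.055 with cyclic loess. Among the 125 genes as abundant as it, with a log2 CPM above 10, the median log2 was 0.26 and 98.4% were higher in SN. Mtrex, the MTR4 helicase itself, was at 14.6 to 20.7 TPM. Of its NEXT complex partners, Rbm7 was at 90.9 to 132 TPM and Zcchc8 at 38.6 to 60.9 TPM. The TRAMP subunits Tent4b, a poly(A) polymerase, and Zcchc7 were at 11.8 to 18.9 TPM and 10.5 to 12.7 TPM. Zfc3h1, of the PAXT connection to polyadenylated RNA, was at 4.31 to 6.51 TPM, and C1d, which binds EXOSC10, at 2.07 to 5.62 TPM.

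Cytoplasmic cofactors did not pass either, with 0 of 6 called and a median log2 of -0.12. Wdr61, a subunit of the SKI complex that also serves the PAF1 complex, was at 49.6 and 38.7 TPM in NSN and 24.3 and 33.1 TPM in SN. Its log2 was -0.47 (SE 0.16, edgeR adjusted p = 0.662), and it was called without SN replicate 2 (-0.60, edgeR adjusted p = 0.0241), while the adjusted p reached 0.817 without SN replicate 1. Without NSN replicate 1 the log2 was -0.21. The other SKI subunits were rarer, with Ttc37 at 8.21 to 11.04 TPM and the helicase Skiv2l at 2.87 to 4.05 TPM. Hbs1l, whose short form bridges SKI and exosome, was at 25.7 to 39.5 TPM. Among 14 other 3′ to 5′ exoribonucleases tested, 0 were called and 2, Pnpt1 and Isg20, had an unadjusted p under 0.05, both lower in SN (log2 -0.55, SE 0.25, and -0.42, SE 0.18), where 3.46% of all genes were lower with such a p. Leaving out 1 library moved Pnpt1 to -0.26 (without SN replicate 1) or -0.92 (without SN replicate 2), and Isg20 to -0.16 (without NSN replicate 1), -0.64 (without NSN replicate 2) or -0.26 (without SN replicate 1). Isg20 was named after its value was seen. Dis3l2, which degrades uridylated RNA without the exosome, was at 1.36 to 2.02 TPM and Eri1, which trims histone mRNA ends, at 7.78 to 10.2 TPM.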

How the data were processed

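Messenger RNA captured with oligo(dT) was sequenced in 4 libraries of mouse oocytes. Transcripts with short poly(A) tails can be under-represented. The submitters' processing notes list RSEM, Bowtie2, HISAT2 and mm10, with no version or role for any of them, and the strand setting is not given in the sources used here. The authors deposited estimated counts per RefSeq model (80.1% of those above 0 not whole within 0.005). The authors also deposited TPM and FPKM per model, the latter used here only for effective lengths. The authors' normalized read counts, a scaled signal, and all class averages were not used. The authors' log2 ratio and unadjusted p-value per model are quoted where named.

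Estimated counts were summed per gene ID, rounded, filtered with filterByExpr and scaled by TMM factors (0.896 to 1.08). SN was compared with NSN by edgeR 4.0.16 (R 4.3.3; quasi-likelihood, robust), with Benjamini-Hochberg adjustment over 13426 genes and a threshold of 0.05. Intervals are 95% and unadjusted. TPM was summed per gene for levels. Models and model shares were tested with the same tools. Alternatives were DESeq2 1.42.0, limma 3.58.1 (voom, and log2(TPM + 1) or log2(TPM + 0.1) with a mean of at least 1 TPM), other scalings and filters, a replicate block and leaving out each library. A floor of 3 counts equals 0.081 to 0.0929 CPM and covers counting error only. Promoters and locations are RefSeq's (GRCm38.p6), and exonic overlaps are from GENCODE (GRCm38).

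All 10 members, every member model with a mean of at least 1 CPM and the defining cofactors were to be named. The members and lists were chosen with earlier results of these data known.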

Additional observations from a re-analysis of the deposited data

How the results depend on the processing

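Of 130 member log2 values under alternatives that gave an adjusted p, 120 kept their direction and their side of the threshold, 9 changed sign and 1 (Exosc2 without SN replicate 2) passed. The 10 values from DESeq2 kept their direction and had no adjusted p. Exosc1 and Dis3 changed sign with library size alone (-0.097 and -0.107), on log2(TPM + 1) (-0.123 and -0.205) and on log2(TPM + 0.1) (-0.124 and -0.269), where the median of all genes moved to -0.154, -0.157 and -0.176 and the member median to -0.102, -0.164 and -0.172. Without a library, Exosc4 ranged from -0.233 to 0.047, Exosc5 from -0.177 to 0.060 and Exosc10 from -0.151 to 0.0097. Members called ranged from 0 to 1 and all genes called from 2 to 289 with a library left out. Genes called numbered 15 with library size alone, 15 with no low-count filter, 47 with DESeq2, and 33 and 31 on the TPM scales. DESeq2 called 1178 transcripts. Genes with called model shares numbered 47 at 1 CPM in 2 libraries and 0 to 14 without a library. With the replicate block 44 genes and 2 genes with model shares were called, no member among them. The labels do not pair the replicate numbers, and deviations from the class means correlated at 0.029 across genes between libraries of the same number. The span from Exosc7 to Dis3 was 116 from TMM-scaled counts per effective length. The causes of these moves were not tested. At 205 to 243 counts per library, Dis3 was the member with the fewest counts.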
